A study of Mus musculus with 2 samples.

Results

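The 33 genes described here are 14 glycolytic enzymes, 2 regulators of phosphofructokinase, 3 glucose or lactate transporters and 14 genes of oxygen sensing and of the transcriptional response to low oxygen. They were taken by symbol from the 32285 features of the count tables. All 33 symbols were found; Aldoa is the symbol of 2 features, and only the abundant one is described, because the other held 0 control UMIs and 6 OTM UMIs. The transcripts were measured by droplet single-cell RNA sequencing (3' ends, counted as unique molecular identifiers, UMIs) in the periodontal ligament (PDL), the tissue that holds the tooth root in its bony socket. All mice were male C57BL/6J animals aged 8 weeks. In the orthodontic tooth movement (OTM) group, the left first molar of the upper jaw was pulled mesially by a force of 10 g for 6 days. In the control group, the tissue came from the unloaded right side. Each group was 1 library from the pooled tissue of 5 mice, taken from the extracted roots and the sockets, so no spread between mice can be given and no p-value was computed. The intervals below are 95% intervals that cover counting error only.

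Glycolysis splits glucose into pyruvate and yields ATP without oxygen, and lactate dehydrogenase then turns pyruvate into lactate. The hypoxia-inducible factors HIF-1 and HIF-2 are heterodimers whose alpha subunits, encoded by Hif1a and Epas1, are hydroxylated by the prolyl hydroxylases (Egln1, Egln3) and degraded while oxygen is present. When oxygen falls they bind the core sequences ACGTG or GCGTG and activate most glycolytic enzyme genes, as well as genes that limit mitochondrial oxidation (Pdk1), mark mitochondria for removal (Bnip3, Bnip3l) or signal to vessels (Adm). Glycolytic enzymes are also driven by growth signals, inflammation and differentiation, and neutrophils, osteoclasts and keratinocytes are known as glycolytic cells. Compression and stretch of the ligament during orthodontic loading are known to alter its blood flow.

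The promoters of 6 members on which the results turn are shown for the core letters that HIF binds. The letters ACGTG and GCGTG were searched on both strands, where they read CACGT and CACGC on the other strand and where the palindrome CACGTG counts on each. The windows run from 250 bases before to 50 bases after each RefSeq start (GRCm38.p6), and 29 of the 33 members had 42 such windows. Either motif was present in 83.3% of the 42 windows, against 43.8% of all 32851 windows of that length in the table. The stricter letters ACGTG were present in 57.1% and 19.6%. The share with either motif was 80.0% of the 25 windows of glycolytic genes and 85.7% of the 14 windows of hypoxia-induced genes. The share with ACGTG was 48% and 64.3%, so both lists held the letters more often than all windows did. No motif was found in the windows of Gpi1 and Tpi1, and a match is a description of letters, not of binding. Stretches upstream of the start are printed 5' to 3' on the gene's strand, with the motif letters in capitals. Pgk1 and Ldha encode phosphoglycerate kinase and lactate dehydrogenase A, Slc16a3 the lactate exporter MCT4, Bnip3 a mitophagy receptor, Hilpda an inhibitor of lipid breakdown and Adm the vasodilator peptide adrenomedullin.
Pgk1, chrX:106186930-106186993, plus strand: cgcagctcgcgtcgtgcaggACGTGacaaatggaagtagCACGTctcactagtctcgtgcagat
Ldha, chr7:46845736-46845794, plus strand: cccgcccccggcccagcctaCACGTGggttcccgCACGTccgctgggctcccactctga
Slc16a3, chr11:120949020-120949066, plus strand: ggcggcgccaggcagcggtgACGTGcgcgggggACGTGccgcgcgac
Bnip3, chr7:138909581-138909643, minus strand: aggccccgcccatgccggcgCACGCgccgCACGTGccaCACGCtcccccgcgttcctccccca
Hilpda, chr6:29272563-29272625, plus strand: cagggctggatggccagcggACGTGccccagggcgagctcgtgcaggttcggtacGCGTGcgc
Adm, chr7:110627547-110627627, plus strand: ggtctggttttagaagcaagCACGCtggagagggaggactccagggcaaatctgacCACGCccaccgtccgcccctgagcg

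The files held 369 control and 1539 OTM barcodes, against about 5000 cells targeted per sample in the labels, and no barcode occurred in both libraries. The filters kept 348 cells of the control library (median depth 14877 UMIs) and 1412 of the OTM library (median depth 19583). Cells were clustered without the member genes and without the other genes of the same pathways, so that no class is defined by the values described, and clusters were named from marker genes. With control and OTM cells in that order, the compared classes were epithelial-like (20 and 126), neutrophil-like (37 and 162), macrophage or monocyte-like (31 and 62), osteoblast lineage-like (34 and 132), fibroblast-like (29 and 383) and endothelial-like (14 and 203) cells, and an unnamed cluster led by Pcp4 and Wif1 (91 and 116). The fibroblast markers of the ligament, Postn among them, were summed at 38450.1 and 33919.6 CPM (UMIs scaled to the total of the class in its library) in the fibroblast-like class. In 3 classes the cluster with the most cells differed between the libraries. It was c5 in control and c12 in OTM for neutrophil-like, c8 and c10 for osteoblast lineage-like, and m1 and m4 for macrophage or monocyte-like cells. Osteoclast-like cells were found only among OTM cells (22). Members made up 0.347% of control UMIs and 0.521% of OTM UMIs.

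The glycolytic members as a group were more abundant in OTM than in control cells, while the median hypoxia-induced member was level. Over all cells, the 16 glycolytic enzymes and regulators summed to 2514 CPM (interval 2473 to 2556) in control and 4083 CPM (interval 4062 to 4104) in OTM. The 12 hypoxia-induced genes (Pdk1, Bnip3, Bnip3l, Higd1a, Egln1, Egln3, Ankrd37, Hilpda, Ndrg1, Adm, Ddit4 and Mxi1) summed to 574 CPM (interval 555 to 595) and 605 CPM (interval 597 to 613). The median log2 ratio of OTM over control was 0.65 over the 16 glycolytic genes, -0.01 over the 12 hypoxia-induced genes and -0.004 over all genes with enough UMIs, which means at least 5 expected in each library at equal CPM. Of the glycolytic genes, 3 were at least 2-fold higher and none was 2-fold lower, where 5.68% of all genes were 2-fold higher and 9.52% lower. The 3 were Pgk1 (95.6 CPM in control and 221 CPM in OTM), Ldha (311 CPM in control and 642 CPM in OTM) and the scarce Aldoc (2 and 89 UMIs). Adm was the 1 hypoxia-induced gene past 2-fold, and it was lower in OTM, at 46.5 CPM in control and 18.0 CPM in OTM. Over all cells these values mix a change of levels within cell types with a change of cell types, so each class is described in turn.

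In every compared class but the neutrophil-like cells and the Pcp4 Wif1 cluster, the glycolytic sum was higher in OTM beyond counting error. Epithelial-like cells had the highest sum of the compared classes in both libraries, 6371 CPM (interval 6132 to 6617) in control and 10026 CPM (interval 9943 to 10109.9) in OTM. Neutrophil-like cells came next among the compared classes, at 4712 CPM (interval 4528 to 4902) and 4749 CPM (interval 4645 to 4855), 2 values whose intervals overlap. The sum was 1891 and 4287 CPM in macrophage or monocyte-like, 2021 and 2992 CPM in osteoblast lineage-like, 1612 and 2395 CPM in fibroblast-like and 1931 and 2839 CPM in endothelial-like cells. In the Pcp4 Wif1 cluster, the class with the most control cells, it was 2116 and 2040.2 CPM. The hypoxia-induced sum did not follow it. It was higher in OTM macrophage or monocyte-like cells (419.7 and 673 CPM), lower in endothelial-like cells, and the interval of its ratio included 0 in the other 5 compared classes. In neutrophil-like cells it was 323 and 379 CPM, and in endothelial-like cells it was 779 CPM and 662 CPM (log2 ratio -0.23, interval -0.43 to -0.03).

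**Figure D1:**
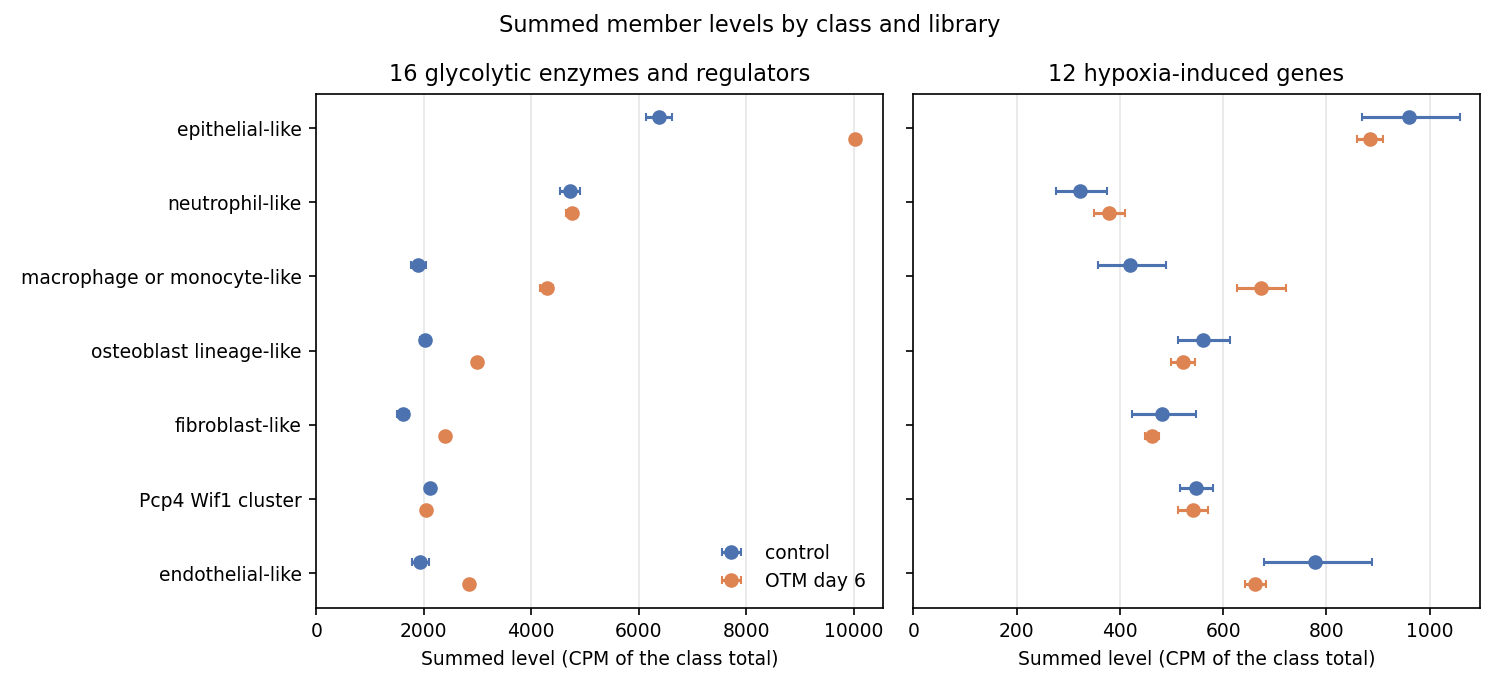
Summed level (CPM of the class total) of the 16 glycolytic genes (left) and the 12 hypoxia-induced genes (right) in each class, with control in blue and OTM day 6 in orange. Points are class sums of 1 library each and bars are exact 95% Poisson intervals; the largest gap on the left is in epithelial-like cells, from 6371 to 10026 CPM, while the hypoxia-induced sums of most classes overlap.

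Where each member was most abundant differed by role. In the OTM library, Pfkl, Tpi1, Gapdh, Pgk1, Pgam1, Eno1, Pkm and Ldha were highest in epithelial-like cells. Gapdh, which oxidises glyceraldehyde phosphate, reached 2129 CPM (interval 2090.4 to 2168) in epithelial-like cells and 1831 CPM (interval 1755 to 1909.8) in osteoclast-like cells. Aldoa, the main aldolase, was highest in osteoclast-like cells at 1432 CPM (interval 1365 to 1501), followed by 655 CPM (interval 633 to 676) in epithelial-like cells. Gpi1, the isomerase of the second step, was instead highest in neutrophil-like cells at 528 CPM (interval 493 to 564). The hexokinases differed by isoform. Hk2, the inducible form, was highest in the Pcp4 Wif1 cluster at 210.1 CPM (interval 192 to 229), and Hk1, the housekeeping form, in endothelial-like cells at 93.5 CPM (interval 85.8 to 102), an interval that overlaps that of the next class, Schwann-like cells at 66.4 CPM. Pfkp was highest in Schwann-like cells at 84.7 CPM (interval 59.6 to 117), and the regulators Pfkfb3 and Pfkfb4 were led by B-like cells (106 CPM on 20 UMIs) and by neutrophil-like cells (53.7 CPM), each with an interval that overlaps the next class.

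Hk2 was scarce in endothelial-like cells, with 0 control UMIs, which by the floor of 3 UMIs allows up to 10.6 CPM, and 42 OTM UMIs (7.29 CPM), where Hk1 had 21 and 539 UMIs. As a share of the UMIs of both isoforms, Hk2 was 7.23% (5.26 to 9.65) in OTM endothelial-like cells and 77.8% (74.9 to 80.5) in OTM epithelial-like cells. The transporters Slc2a3 (GLUT3, a high-affinity glucose carrier) and Slc16a3 were highest in neutrophil-like cells, at 256 CPM (interval 232 to 282) and 299.5 CPM (interval 274 to 327) in the OTM library. The next class for Slc2a3 was a cluster of 6 control and 17 OTM cells led by Cma1 and Gzmb, at 78.7 CPM, and the next for Slc16a3 was macrophage or monocyte-like cells at 62.2 CPM. The Cma1 Gzmb cluster scored almost equally for mast cells and for T or NK cells, so it is called by its leading genes. Slc2a1 (GLUT1, the widespread glucose carrier) was highest in epithelial-like cells, at 116 CPM (interval 107 to 126).

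The hypoxia-induced genes did not share a highest class. Ndrg1, a stress and differentiation gene that myelinating Schwann cells need, was highest in Schwann-like cells at 959 CPM (interval 869.6 to 1056), and most of it came from cluster c4 (1992 CPM). Hilpda reached 635 CPM (interval 519.6 to 769) in the Cma1 Gzmb cluster, where 1 cell held 37.1% of its UMIs. Bnip3l, which clears mitochondria from maturing red cells, was highest in erythroid-like cells at 280.4 CPM (interval 241 to 324), an interval that overlaps that of Schwann-like cells, 224 CPM (interval 182 to 273). Ddit4, an inhibitor of mTOR signalling, was highest in mural-like cells at 116 CPM (interval 94.0 to 141), which overlaps the interval of the Cma1 Gzmb cluster at 90.8 CPM. Adm was highest in the Pcp4 Wif1 cluster at 46.2 CPM (interval 38.0 to 55.6), and Higd1a, a mitochondrial membrane protein, in epithelial-like cells at 329.8 CPM (interval 315 to 345). Bnip3, Pdk1 and Ankrd37, a short ankyrin-repeat protein, were low in all classes, with none above 37.9 CPM for Bnip3, 24.7 CPM for Pdk1 or 23.6 CPM for Ankrd37 among those with at least 15 OTM cells.

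The 2 factors were highest in different classes. Hif1a was highest in epithelial-like cells at 672 CPM (interval 650.2 to 694), followed by endothelial-like cells at 355 CPM (interval 339.5 to 370.5). The prolyl hydroxylase Egln1 was highest in Schwann-like cells at 124 CPM (interval 92.9 to 161) (overlapping the next class), and Egln3 was highest in B-like cells, at 21.1 CPM on 4 UMIs. Epas1, the HIF-2 subunit known from endothelium and pericytes, was highest in mural-like cells at 647 CPM (interval 594 to 704) and then in endothelial-like cells at 318 CPM (interval 304 to 333). Its share of the UMIs of both factors in the OTM library was 70.1% (66.7 to 73.3) in mural-like, 47.3% (45.7 to 48.9) in endothelial-like, 23.6% (22.2 to 25.1) in fibroblast-like and 3.99% (3.40 to 4.66) in epithelial-like cells. Between libraries that share was lower in OTM endothelial-like cells than in the control ones, 65.6% (58.8 to 71.9), and higher in OTM fibroblast-like cells than in the control ones, 13.3% (7.93 to 20.4). A share of UMIs compares 2 genes of unlike capture, so only its change across classes is described.

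**Figure D2:**
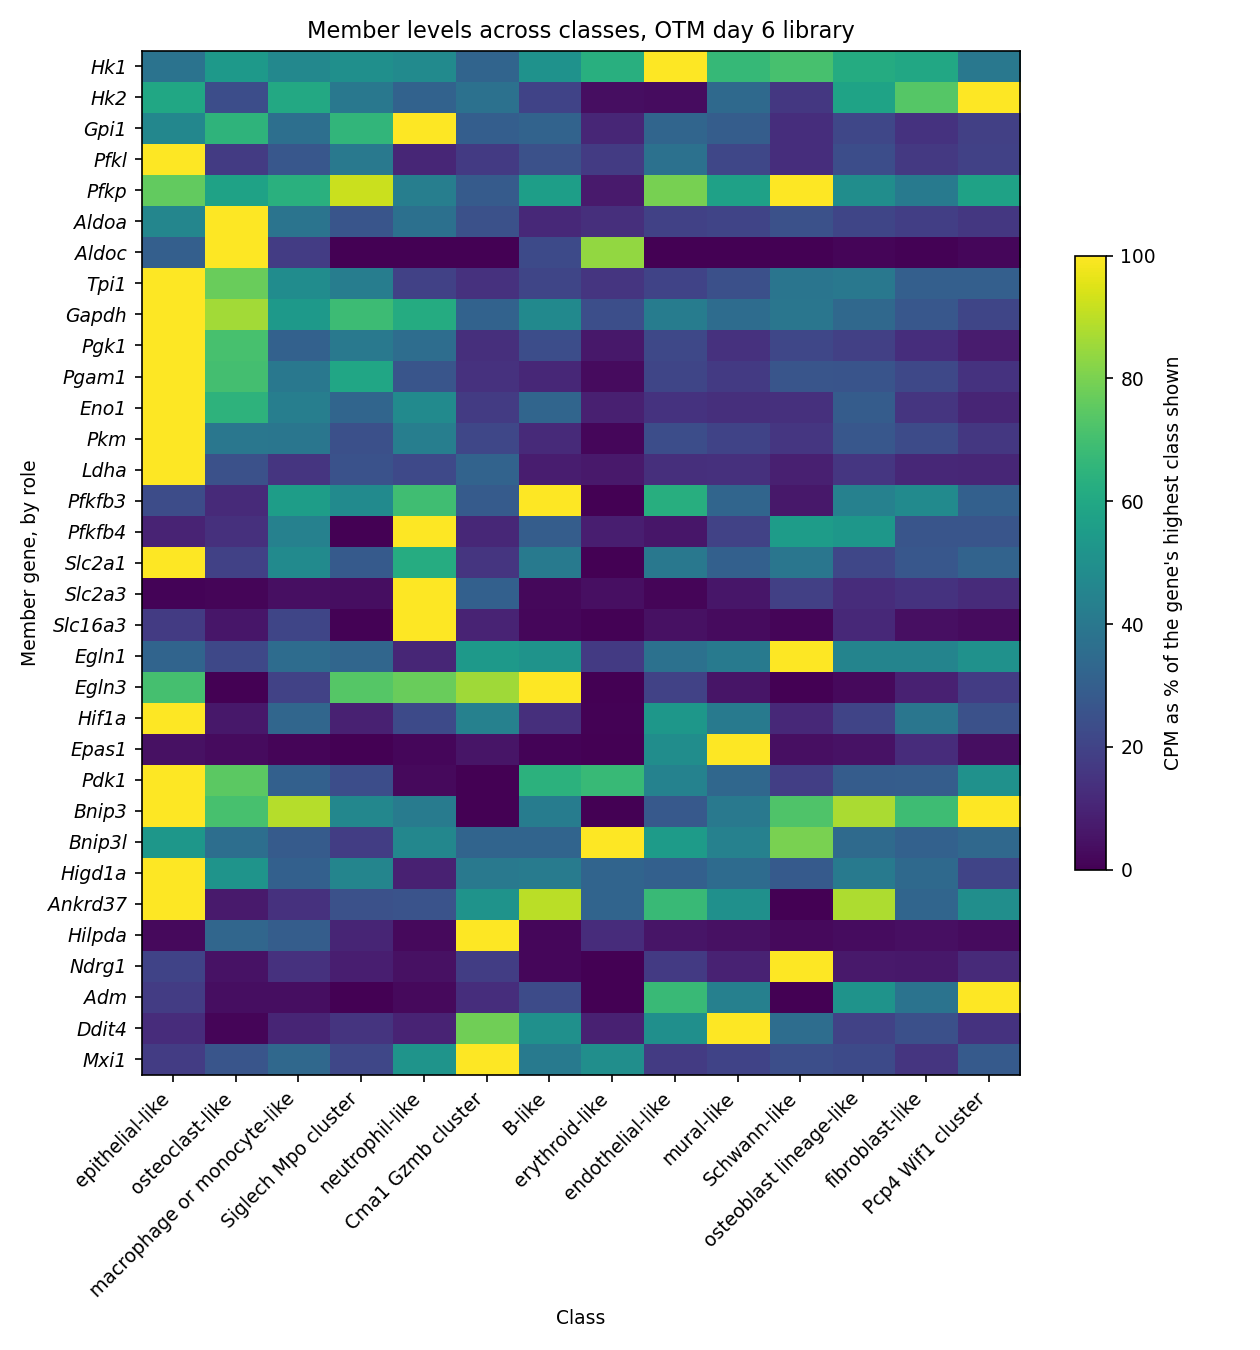
Level of each of the 33 genes in the OTM library, as a percentage of the gene's highest class among the 14 shown (genes in rows ordered by role, classes in columns, yellow for the highest). The block of glycolytic enzymes is brightest in epithelial-like and osteoclast-like cells, Slc2a3 and Slc16a3 stand out in neutrophil-like cells, Epas1 in mural-like cells and Ndrg1 in Schwann-like cells.

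The ligament holds epithelial cell rests, and gingival epithelium adjoins it. The epithelial-like cells, whose source among these was not tested, had higher glycolytic transcripts in OTM, with small differences of most hypoxia-induced genes. Ldha was at 886 CPM in control and 2347 CPM in OTM cells (log2 ratio 1.41, interval 1.26 to 1.56), the highest ratio of the measurable enzymes. Gapdh was at 1180.2 CPM in control and 2129 CPM in OTM and Pgk1 at 351 CPM in control and 673 CPM in OTM, with log2 ratios of 0.85 and 0.94. Pkm, the pyruvate kinase of most tissues, was at 1406 CPM in control and 1664 CPM in OTM and Aldoa at 632 CPM in control and 655 CPM in OTM, so that the enzymes did not shift by a common factor. Of 14 measurable glycolytic genes, 13 were above 0 and 2 were 2-fold higher (Ldha and Pfkfb3, the latter with 4 and 136 UMIs and an interval of -0.01 to 3.27), where 8.09% of all genes in the class were 2-fold higher and 8.27% lower. The median was 0.48, against -0.11 for all 7813 genes.

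The lactate exporter Slc16a3 was at 23.7 CPM in control and 52.2 CPM in OTM epithelial-like cells, on 10 and 288 UMIs (log2 ratio 1.14, interval 0.24 to 2.21). This difference turned with each cell weighted equally, to -1.05, and to -0.20 with cells thinned to 2000 UMIs. Slc2a1 was at 80.7 CPM in control and 116 CPM in OTM (log2 ratio 0.53, interval 0.03 to 1.07). The hypoxia-induced genes had a median of 0.14 over 11 measurable genes, while their sum was 959 in control and 884 CPM in OTM, so median and sum differ in sign. Most UMIs of the sum came from Higd1a (299 CPM in control and 329.8 CPM in OTM), Ndrg1 (285 CPM in control and 194 CPM in OTM) and Bnip3l (142 CPM in control and 148 CPM in OTM). Mxi1, a repressor of Myc targets, was the 1 gene more than 2-fold lower, at 73.6 CPM in control and 31.9 CPM in OTM (log2 ratio -1.21, interval -1.76 to -0.60). Hif1a was at 682 CPM in control and 672 CPM in OTM (log2 ratio -0.02, interval -0.19 to 0.16), and Hk2 was at 149.6 CPM in control and 125 CPM in OTM, with 66.7% of its control UMIs in 1 cell. Scaling by TMM factors instead of totals would add 0.31 to every log2 ratio in this class and 0.11 in fibroblast-like cells.

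At the level of single cells, the glycolytic sum of epithelial-like cells had a median of 5062 CPM with quartiles of 3585 and 6702 in 20 control cells. It had a median of 9554 CPM with quartiles of 7079.8 and 12280.3 in 126 OTM cells, so that the interquartile ranges did not overlap. The hypoxia-induced sum had medians of 863 and 839.7 CPM. The sum of the epithelial markers was 42716 CPM in control and 31546 CPM in OTM. All cells of the class fell in 1 cluster, c14. Its leading genes were BC037156, Krt17, Odam, U90926, Krt14, Krt6a, Sprr2d, Krt5, Krt6b and Krt16. The OTM cells of the class were deeper, with a median of 34944 UMIs against 14008.5, and thinned to 2000 UMIs the median ratio of the glycolytic genes was 0.86. The neutrophil marker list summed to 4407 CPM in control (5 of 10 markers at 0) and 5265 CPM in OTM (1 at 0), and immediate early and stress genes had a median log2 ratio of -0.60. Whether these values bear on the glycolytic ones was not tested.

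The broadest differences were those of macrophage or monocyte-like cells, whose clusters were unlike between the libraries (most control cells in m1, the most OTM cells in m4). Pgk1 was at 47.2 CPM in control and 208 CPM in OTM (log2 ratio 2.14, interval 1.45 to 2.92), Pgam1 (phosphoglycerate mutase) at 86.6 CPM in control and 344 CPM in OTM and Eno1 (enolase) at 81.3 CPM in control and 282 CPM in OTM. Gapdh was at 477 CPM in control and 1149 CPM in OTM (log2 ratio 1.27, interval 1.04 to 1.50), Pkm at 220.4 CPM in control and 653 CPM in OTM and Aldoa at 184 CPM in control and 554 CPM in OTM. Of 15 measurable glycolytic genes, 9 were 2-fold higher and none was 2-fold lower, in a class where 21.1% of all genes were 2-fold higher and 7.92% lower. The median was 1.16, against 0.24 for all genes, and it was 0.08 when clusters were drawn at a Leiden resolution of 0.5, where the class holds 29 control and 27 OTM cells. Hk2, the first enzyme of the pathway, went the other way, at 223 CPM in control and 127 CPM in OTM (log2 ratio -0.81, interval -1.21 to -0.41), as did the carrier Slc2a1 at 115 CPM in control and 55.4 CPM in OTM (log2 ratio -1.06, interval -1.63 to -0.47).

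Hif1a was at 39.4 CPM in control and 223 CPM in OTM macrophage or monocyte-like cells, on 15 and 265 UMIs (log2 ratio 2.50, interval 1.75 to 3.36), the highest ratio in the class of a member with more than 3 UMIs in each library. The exporter Slc16a3 was at 13.1 CPM in control and 62.2 CPM in OTM (log2 ratio 2.24, interval 0.96 to 3.91). Among hypoxia-induced genes, Ndrg1 was at 39.4 CPM in control and 135 CPM in OTM (log2 ratio 1.78, interval 1.02 to 2.65) and Egln1, a prolyl hydroxylase, at 13.1 CPM in control and 43.7 CPM in OTM (log2 ratio 1.74, interval 0.42 to 3.42). Bnip3 had 1 control UMI and 40 OTM UMIs (log2 ratio 3.68, interval 1.12 to 9.02). Hilpda was at 105 CPM in control and 188 CPM in OTM and Bnip3l at 44.6 CPM in control and 80.6 CPM in OTM, both within 2-fold. Ddit4 was lower, at 28.9 CPM in control and 11.8 CPM in OTM on 11 and 14 UMIs (log2 ratio -1.30, interval -2.54 to -0.01), and Mxi1 was at 108 CPM in control and 61.3 CPM in OTM, with 61.0% of its control UMIs in 1 cell. The counts were 3 higher and 1 lower of 8 measurable hypoxia-induced genes (all genes 21.1% and 7.92%), with a median of 0.85 against 0.24 for all genes.

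The class was made of 3 clusters with unlike shares of the libraries. Cluster m1 (17 control and 15 OTM cells, led by Mrc1, Fcrls and Pf4) held most control cells, and cluster m4 (1 control and 27 OTM cells, led by Arg1, Ctss and Apoc2) held the most OTM cells. Cluster m2 (13 and 20 cells) was led by Ccl12, Oasl1 and Ccl7. Within m1 the glycolytic sum was 1634 CPM in control and 1953 CPM in OTM, and within m2 it was 1972 and 3084 CPM, while the median single cell of m2 was at 2202 and 2329 CPM. In m4 it was 6035 CPM (interval 5829 to 6247) in OTM. The median log2 ratio of glycolytic genes was 0.14 within m1, with 1 of 11 at least 2-fold higher and none lower (all genes 12.2% and 10.5%), and 0.73 within m2, with 2 of 13 higher and none lower (all genes 25% and 8.45%). For the hypoxia-induced genes the medians were -0.26 over 4 measurable genes in m1 and 0.69 over 5 in m2. With m1 alone, the ratios of Ldha, Pgam1, Slc16a3, Egln1 and Ndrg1 had the opposite sign to those of the class.

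Single genes varied between the macrophage-like clusters. Hif1a was at 45.5 CPM in control and 188 CPM in OTM cells of m2 (log2 ratio 2.05, interval 1.06 to 3.22), and at 297 CPM in m4. Ndrg1 was at 20.2 and 203 CPM in m2 (log2 ratio 3.33, interval 1.93 to 5.23), whereas in m1 it had 8 control UMIs and 1 OTM UMI. Hilpda was higher in m2 and m4 than in m1, at 311 and 114 CPM in OTM against 7.54 CPM in m1. Slc16a3 was at 121 CPM in m4 and 15.3 CPM in m2. Marker sums also differed between the libraries in this class, and in both directions. The 9 dendritic markers summed to 19187 CPM in control and 7674 CPM in OTM. The 11 macrophage or monocyte markers of the class itself summed to 15226 CPM and 9817 CPM. Neutrophil, osteoclast and fibroblast markers were higher in OTM. The 10 neutrophil markers summed to 105 CPM in control (4 at 0) and 382 CPM in OTM (1 at 0), against 309116 CPM in OTM neutrophil-like cells. The 8 osteoclast markers summed to 349 CPM (2 at 0) and 1041 CPM (1 at 0). The 11 fibroblast markers summed to 108 CPM (4 at 0) and 757 CPM (0 at 0). Immediate early and stress genes, which enzymatic dissociation can induce, had a median log2 ratio of -1.04 in the class, and oxidative metabolism genes had a median of 0.99. The part of these differences in the glycolytic values was not tested.

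**Figure D3:**
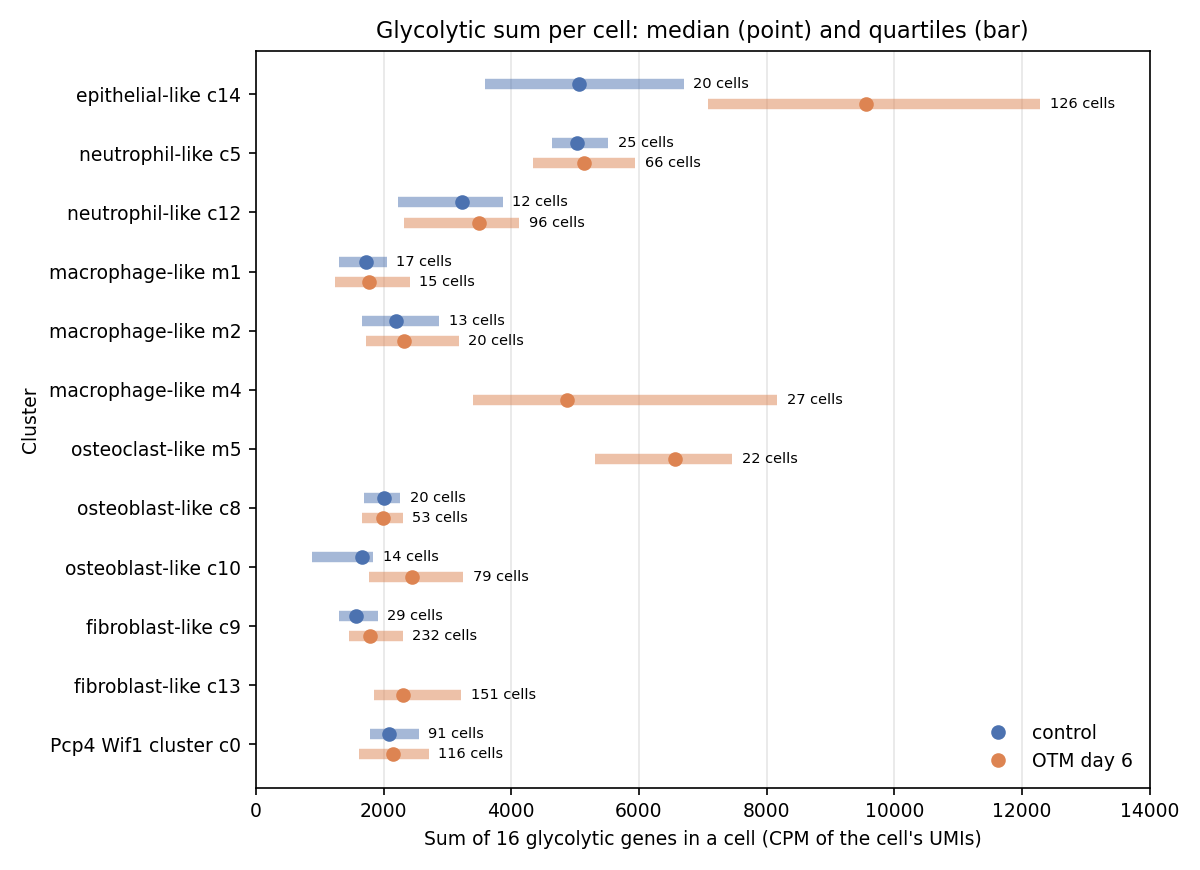
Sum of the 16 glycolytic genes in single cells (CPM of the cell's own UMIs) by cluster, with control in blue and OTM day 6 in orange; points are medians, bars run from the first to the third quartile and the number of cells is printed, and groups under 10 cells are left out. Cells of m1, m2, c8, c5 and c0 had nearly equal medians in both libraries, while c14 and c10 were higher in OTM and m4 and m5 were high with no control group to compare.

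Osteoclast-like cells (cluster m5), which resorb bone and come from the same myeloid lineage, were found only in the OTM library, so their members can be given as levels but not as differences. Their glycolytic sum was 6897 CPM (interval 6748 to 7047), second to the epithelial-like cells among named classes. In single cells it ranged from 3128 to 10592 CPM around a median of 6565 CPM. Aldoa was at 1432 CPM, Pgk1 at 478 CPM and Pgam1 at 602 CPM. Their hypoxia-induced sum was 654 CPM (interval 609 to 701), of which Hilpda had 209 CPM. Hif1a was at 44.5 CPM, below the 7 compared classes of that library, and the oxidative metabolism list summed to 9195 CPM, against 2599.8 CPM in OTM macrophage or monocyte-like cells.

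In osteoblast lineage-like cells, several glycolytic enzymes were higher in OTM and Adm was lower. Whether these cells came from the roots or from the sockets is not known. Eno1 was at 86.7 CPM in control and 192 CPM in OTM (log2 ratio 1.15, interval 0.80 to 1.51), Pgk1 at 63.6 CPM in control and 127 CPM in OTM (log2 ratio 1.00, interval 0.59 to 1.43) and Pgam1 at 113 CPM in control and 223 CPM in OTM. Gapdh was at 409 CPM in control and 722 CPM in OTM, Pkm at 306 CPM in control and 455 CPM in OTM and Ldha at 269 CPM in control and 368 CPM in OTM. Aldoa was at 205 CPM in control and 301 CPM in OTM (log2 ratio 0.56, interval 0.33 to 0.79) and Hk2 at 89.0 CPM in control and 122 CPM in OTM (log2 ratio 0.45, interval 0.10 to 0.82). Hk1, Pfkp and Tpi1 had log2 ratios of -0.22, -0.01 and -0.02. Of 15 measurable glycolytic genes, 2 were 2-fold higher and none was 2-fold lower (all genes 8.93% and 3.01%), with a median of 0.45 against 0.12 for all genes. The median depended on which cells the class holds, and it was -0.01 when called doublets were removed before clustering (32 and 84 cells in the class) and 0.01 with a stricter filter (22 and 74) or no filter on cells (34 and 111). Among transporters, 2 were past 2-fold, Slc16a3 at 5.78 CPM in control and 34.2 CPM in OTM on 5 and 124 UMIs (log2 ratio 2.57, interval 1.30 to 4.21), and Slc2a3 at 15.02 CPM in control and 32.3 CPM in OTM (log2 ratio 1.10, interval 0.27 to 2.05). Both transporters were highest in neutrophil-like cells, and the neutrophil marker sum in this class was 45.1 CPM in control and 18.5 CPM in OTM. The fibroblast marker sum was 8327 and 12904 CPM. The sum of the 9 endothelial markers was 158 CPM in control (0 at 0) and 12.1 CPM in OTM (3 at 0). The part of these marker sums in the member values was not tested.

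The hypoxia-induced genes of osteoblast lineage-like cells had a median of -0.20 over 11 measurable genes, with the opposite sign to the glycolytic median. Adm was at 69.3 CPM in control and 23.7 CPM in OTM on 60 and 86 UMIs (log2 ratio -1.55, interval -2.04 to -1.05), with 33.3% of its control UMIs in 1 cell. Thinning the cells to 2000 UMIs turned this ratio to 0.50. Ankrd37 was at 32.4 CPM in control and 20.7 CPM in OTM and Hilpda at 27.7 CPM in control and 20.7 CPM in OTM, each with an interval that includes 0. Higd1a was slightly higher, at 101 CPM in control and 134 CPM in OTM (log2 ratio 0.42, interval 0.09 to 0.76), as was Hif1a at 101 CPM in control and 138 CPM in OTM (log2 ratio 0.46, interval 0.13 to 0.81).

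The class was made of 2 clusters, and its glycolytic difference was present in c10 and not in c8. Cluster c8, with 20 control and 53 OTM cells, was led by Col11a2, Bglap and Dmp1, genes of mature osteoblasts and osteocytes. Cluster c10, with 14 and 79 cells, was led by Ibsp, Spp1 and Thbs4. Its marker score was 1.60 for the osteoblast lineage and 1.24 for fibroblasts, where c8 scored 3.09 for the osteoblast lineage. In c8 the glycolytic sum was 2114 CPM in control and 1973 CPM in OTM, and 0 of 15 measurable glycolytic genes were 2-fold higher or lower (all genes 6.56% and 3.27%), with a median of -0.16. In c10 the sum was 1523 CPM and 3912 CPM, and 9 of 13 were 2-fold higher and 1 lower (all genes 14% and 8.02%), with a median of 1.28. Eno1 was at 36.8 and 272 CPM in c10 (log2 ratio 2.88, interval 1.65 to 4.51) and at 96.0 and 103 CPM in c8. Aldoa was at 58.9 and 396 CPM in c10 (log2 ratio 2.75, interval 1.76 to 3.97) and at 232 and 195 CPM in c8. Hk1 was the gene lower in c10, at 118 and 51.9 CPM.

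Single cells of c10 had a median glycolytic sum of 1661 CPM in 14 control cells and 2454 CPM in 79 OTM cells, with quartiles of 876 and 1842 CPM and of 1768 and 3244 CPM. The highest OTM cell reached 13568 CPM, against 3090.0 CPM for the highest control cell. Single cells of c8 had medians of 2009 and 1992 CPM. The hypoxia-induced median was -0.29 over 6 measurable genes in c10 and -0.06 over 11 in c8. Adm was lower in OTM in both clusters, at 66.2 and 19.4 CPM in c10 and at 69.9 and 28.5 CPM in c8. The 14 control cells of c10 held 207 glycolytic UMIs in all, so its control values rest on few molecules.

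**Figure D4:**
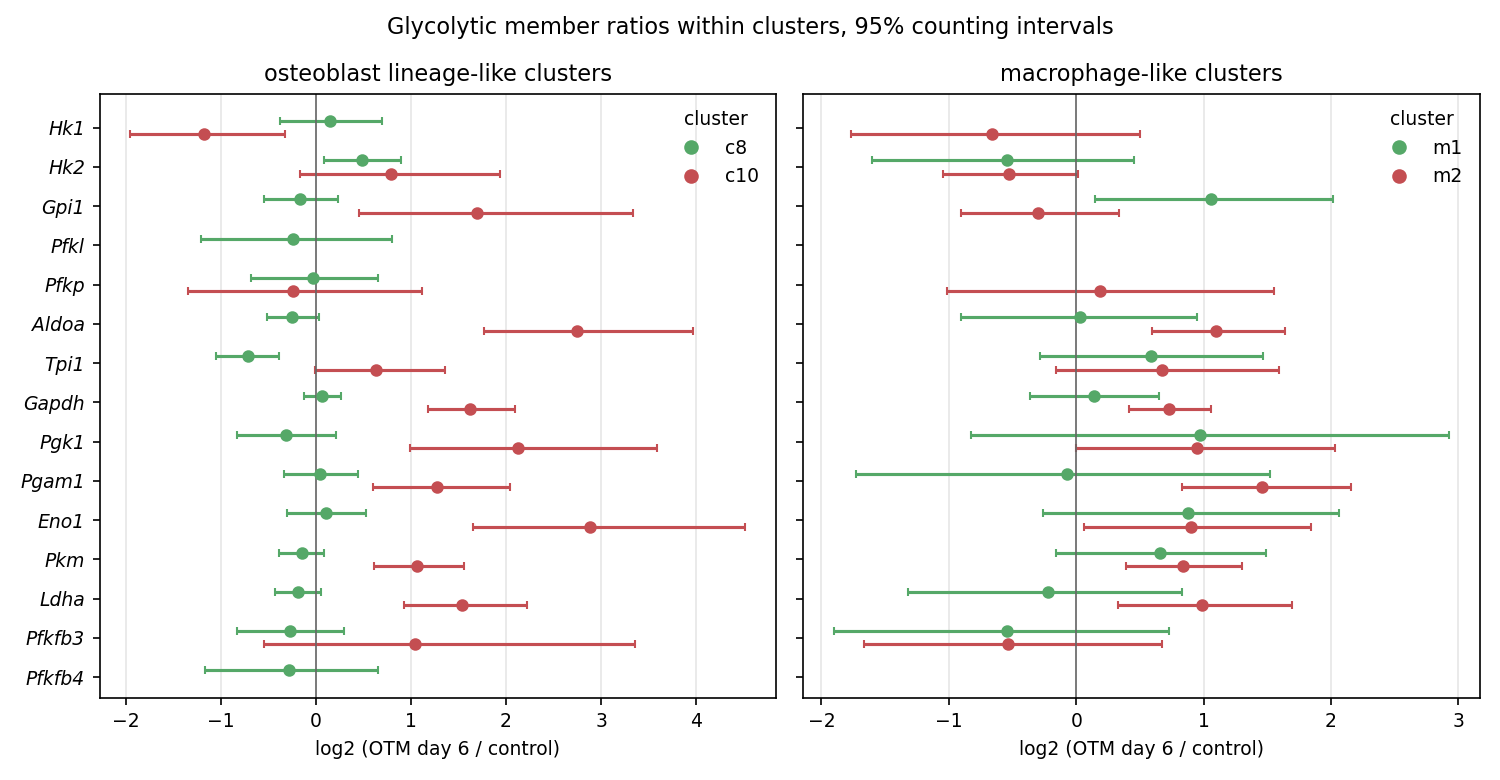
Log2 ratio of OTM day 6 over control (x axis) for each measurable glycolytic member (rows) within osteoblast lineage-like clusters c8 and c10 (left) and macrophage-like clusters m1 and m2 (right). Bars are exact 95% counting intervals; most c8 points lie near 0 while Aldoa, Eno1 and Pgk1 of c10 lie beyond 2, and the m1 and m2 intervals overlap for nearly all genes.

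Fibroblast-like cells, the main cells of the ligament, had higher levels of a few abundant enzymes in OTM and a median of the list close to that of all genes. Gapdh was at 253 CPM in control and 576 CPM in OTM (log2 ratio 1.19, interval 0.94 to 1.45), Pgk1 at 33.3 CPM in control and 87.7 CPM in OTM (log2 ratio 1.39, interval 0.71 to 2.18) and Pkm at 182 CPM in control and 381 CPM in OTM (log2 ratio 1.06, interval 0.76 to 1.37). These 3 were the enzymes 2-fold higher of 15 measurable glycolytic genes (all genes 8.21%), and the median of the list was 0.06, against 0.06 for all genes. Ldha was at 153 CPM in control and 262 CPM in OTM and Aldoa at 188 CPM in control and 264 CPM in OTM, both within 2-fold. Pfkfb4, a bifunctional enzyme that sets the level of a phosphofructokinase activator, was lower at 52.9 CPM in control and 14.2 CPM in OTM (log2 ratio -1.89, interval -2.50 to -1.24). In this class 3.54% of all genes were 2-fold lower, and 1 control cell held 37.0% of the control UMIs of Pfkfb4. With each cell weighted equally, the Gapdh ratio turned to -0.30. Neutrophil markers summed to 714 CPM in control (3 of 10 at 0) and 108 CPM in OTM (0 at 0) in the class, and their part in these values was not tested.

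Epas1 was at 33.3 CPM in control and 81.6 CPM in OTM fibroblast-like cells (log2 ratio 1.29, interval 0.60 to 2.08), and Hif1a at 218 CPM in control and 263 CPM in OTM (log2 ratio 0.28, interval 0.00 to 0.56). Of 9 measurable hypoxia-induced genes none was past 2-fold, and their median was -0.07, or 0.04 under TMM scaling, so no direction is given. Bnip3 was at 47.1 CPM in control and 26.2 CPM in OTM (log2 ratio -0.85, interval -1.45 to -0.18), Bnip3l at 109.8 CPM in control and 87.2 CPM in OTM and Higd1a at 118 CPM in control and 112 CPM in OTM. Ndrg1 was at 41.2 CPM in control and 62.4 CPM in OTM (log2 ratio 0.60, interval -0.03 to 1.30). The transporters Slc2a1, Slc2a3 and Slc16a3 had log2 ratios of 0.21, -0.56 and 0.09. All 29 control cells fell in cluster c9, led by Aspn, Col16a1 and Postn, with 232 OTM cells. The other 151 OTM cells formed cluster c13, led by Ccn5, Pdzrn4 and Fmod, with Mmp13 and Sfrp4 among its leading genes. Glycolytic sums in OTM were 2009.9 CPM in c9 and 2841 CPM in c13, and Epas1 was at 62.6 and 104 CPM. Within c9 alone, Gapdh had a log2 ratio of 0.76 (interval 0.50 to 1.02), Pgk1 1.01 (0.31 to 1.81) and Pkm 0.73 (0.43 to 1.05). Of the 15 measurable glycolytic genes in c9, 1 was 2-fold higher and 1 lower, and of 9 hypoxia-induced genes 1 was higher and none lower (all genes 8.02% and 2.68%).

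In neutrophil-like cells the glycolytic enzymes differed little between the libraries, and the hypoxia-induced genes had a higher median, on few UMIs. Gapdh was at 1369 CPM in control and 1312 CPM in OTM, Pkm at 711 CPM in control and 709.5 CPM in OTM and Aldoa at 529 CPM in control and 531 CPM in OTM, with log2 ratios of -0.06, 0.00 and 0.00. Ldha was at 436 CPM in control and 519 CPM in OTM (log2 ratio 0.25, interval 0.04 to 0.47). The median of the 15 measurable glycolytic genes was 0.02, and it was -0.07 under TMM scaling, so no direction is given. Pfkl, with 2 and 19 UMIs, was the 1 gene past 2-fold, in a class where 16.6% of all genes were 2-fold higher and 2.33% lower. Slc2a3 was lower in OTM, at 375 CPM in control and 256 CPM in OTM (log2 ratio -0.55, interval -0.80 to -0.30), and Slc2a1 higher, at 36.3 CPM in control and 71.9 CPM in OTM (log2 ratio 0.98, interval 0.28 to 1.77). Accordingly the Slc2a3 share of their UMIs was 91.2% (86.5 to 94.6) in control and 78.1% (74.4 to 81.5) in OTM.

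Hif1a was at 91.8 CPM in control and 152 CPM in OTM neutrophil-like cells (log2 ratio 0.73, interval 0.28 to 1.21). Of 9 measurable hypoxia-induced genes, 3 were 2-fold higher and none lower (all genes 16.6% and 2.33%), with a median of 0.72 against 0.20 for all genes. These were Egln3 (2 and 27 UMIs, log2 ratio 2.09, interval 0.10 to 5.21), Hilpda (4 and 28 UMIs, log2 ratio 1.14, interval -0.37 to 3.12) and Higd1a (8 and 51 UMIs, log2 ratio 1.01, interval -0.08 to 2.30). The abundant members of the list were close to level, Bnip3l at 155 CPM in control and 129.8 CPM in OTM and Mxi1 at 82.2 CPM in control and 93.6 CPM in OTM. A floor of 20 expected UMIs lowered the median to 0.19, and thinning to 2000 UMIs gave -0.07. Slc16a3 was at 266 CPM in control and 299.5 CPM in OTM (log2 ratio 0.17, interval -0.10 to 0.45).

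Of the neutrophil-like cells, 25 of 37 in control were in cluster c5, led by the granule genes Ngp, Camp and Ltf, and 96 of 162 in OTM were in cluster c12, led by Acod1, Cstdc4 and Wfdc17. Members differed between these clusters in the OTM library. Gpi1 was at 681 CPM in c5 and 189.7 CPM in c12, and Ldha at 654 and 221 CPM. Slc16a3 was lower in c5, at 159 CPM, than in c12, at 609.8 CPM, and so was Hif1a, at 73.7 and 325 CPM. Within c5, Ldha was at 476 CPM in control and 654 CPM in OTM (log2 ratio 0.46, interval 0.24 to 0.68), and Hif1a was at 71.3 and 73.7 CPM (log2 ratio 0.05, interval -0.55 to 0.67). Slc2a3 was lower in OTM cells of c5 as well, at 380.4 and 243 CPM (log2 ratio -0.65, interval -0.92 to -0.37). Within c5 the glycolytic sum was 4913 CPM in control and 5314.5 CPM in OTM (log2 ratio 0.11, interval 0.04 to 0.18). Within c12 it was 3172 and 3502 CPM (log2 ratio 0.14, interval -0.07 to 0.37). No glycolytic gene was past 2-fold in either cluster, of 14 measurable in c5 (all genes 14.8% higher and 2.97% lower) and 10 in c12 (all genes 12.8% and 6.64%). Of the hypoxia-induced genes 1 of 6 was 2-fold higher in c5 and 0 of 2 in c12. Cells of c12 had a median of 4500 UMIs, against 13444 in c5. The median log2 ratio of immediate early and stress genes in the class was 0.79. Granulocyte progenitor markers summed to 59.3 CPM in control (1 of 5 at 0) and 3671 CPM in OTM (0 at 0) in the class, and endothelial markers to 19.1 CPM in control (7 of 9 at 0) and 316 CPM in OTM (0 at 0). The part of these differences in the member values was not tested.

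The Pcp4 Wif1 cluster expressed fibroblast markers (summed at 9309 CPM in control and 19484 CPM in OTM) but none led it, and it was left unnamed. It was the class with the most control cells (91, against 116 in OTM), and most of its members differed little. Gapdh was at 504 CPM in control and 445 CPM in OTM, Ldha at 299 CPM in control and 254 CPM in OTM and Aldoa at 215 CPM in control and 234 CPM in OTM. The median of the 15 measurable glycolytic genes was 0.01 and that of the 12 hypoxia-induced genes 0.07, against -0.06 for all genes. The sums went slightly the other way, from 2116 to 2040.2 CPM and from 548 to 541 CPM, with overlapping intervals. Only Pfkfb3, which encodes the main activator-producing kinase of phosphofructokinase, was past 2-fold, at 15.6 CPM in control and 32.4 CPM in OTM (log2 ratio 1.06, interval 0.44 to 1.71), where 4.21% of all genes were 2-fold higher and 6.53% lower. Adm was lower in OTM, at 85.9 CPM in control and 46.2 CPM in OTM (log2 ratio -0.90, interval -1.25 to -0.54), and so was Hk1, at 65.8 CPM in control and 37.4 CPM in OTM (log2 ratio -0.81, interval -1.22 to -0.42). Hif1a was at 183 CPM in control and 168 CPM in OTM (log2 ratio -0.13, interval -0.33 to 0.08), Slc2a3 at 42.2 CPM in control and 31.2 CPM in OTM and Ndrg1 at 109 CPM in control and 116 CPM in OTM. Mxi1 was at 35.2 CPM in control and 51.6 CPM in OTM (log2 ratio 0.55, interval 0.12 to 1.00), opposite in sign to its ratio in epithelial-like cells.

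Endothelial-like cells line the vessels, and only 14 control cells were available against 203 OTM cells. Markers of other cells were higher in the OTM cells of the class, where neutrophil markers summed to 102 CPM in control (4 of 10 at 0) and 388 CPM in OTM (0 at 0) and fibroblast markers to 38.8 CPM in control (6 of 11 at 0) and 459 CPM in OTM (0 at 0). Osteoclast markers summed to 0 CPM in control (8 of 8 at 0) and 56.7 CPM in OTM (1 at 0). Dendritic markers summed to 45.8 CPM in control (6 of 9 at 0) and 131 CPM in OTM (1 at 0). Their part in the endothelial-like values was not tested. Ldha was at 166 CPM in control and 319 CPM in OTM (log2 ratio 0.95, interval 0.53 to 1.40), Gapdh at 603 CPM in control and 890.4 CPM in OTM and Pgk1 at 81.0 CPM in control and 146 CPM in OTM. Pfkp, the platelet form of phosphofructokinase, was at 21.1 CPM in control and 67.5 CPM in OTM on 6 and 389 UMIs (log2 ratio 1.67, interval 0.54 to 3.13), and it was the 1 of 13 measurable glycolytic genes past 2-fold (all genes 7.43% higher and 6.16% lower). The glycolytic median was 0.56 and the hypoxia-induced median 0.37, although the hypoxia-induced sum was 779 CPM in control and 662 CPM in OTM. Of its abundant members, Ndrg1 was at 254 CPM in control and 162 CPM in OTM (log2 ratio -0.65, interval -0.995 to -0.28) and Ddit4 at 137 CPM in control and 57.8 CPM in OTM (log2 ratio -1.25, interval -1.73 to -0.73). Hilpda was higher, at 10.6 CPM in control and 37.1 CPM in OTM on 3 and 214 UMIs (log2 ratio 1.81, interval 0.25 to 4.10), and Adm had 4 and 180 UMIs (log2 ratio 1.15, interval -0.23 to 3.04). Epas1 was lower in OTM, at 489.8 CPM in control and 318 CPM in OTM (log2 ratio -0.62, interval -0.87 to -0.36), with a sign opposite to that in fibroblast-like cells, and Hif1a was at 257 CPM in control and 355 CPM in OTM (log2 ratio 0.46, interval 0.13 to 0.82).

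**Figure D5:**
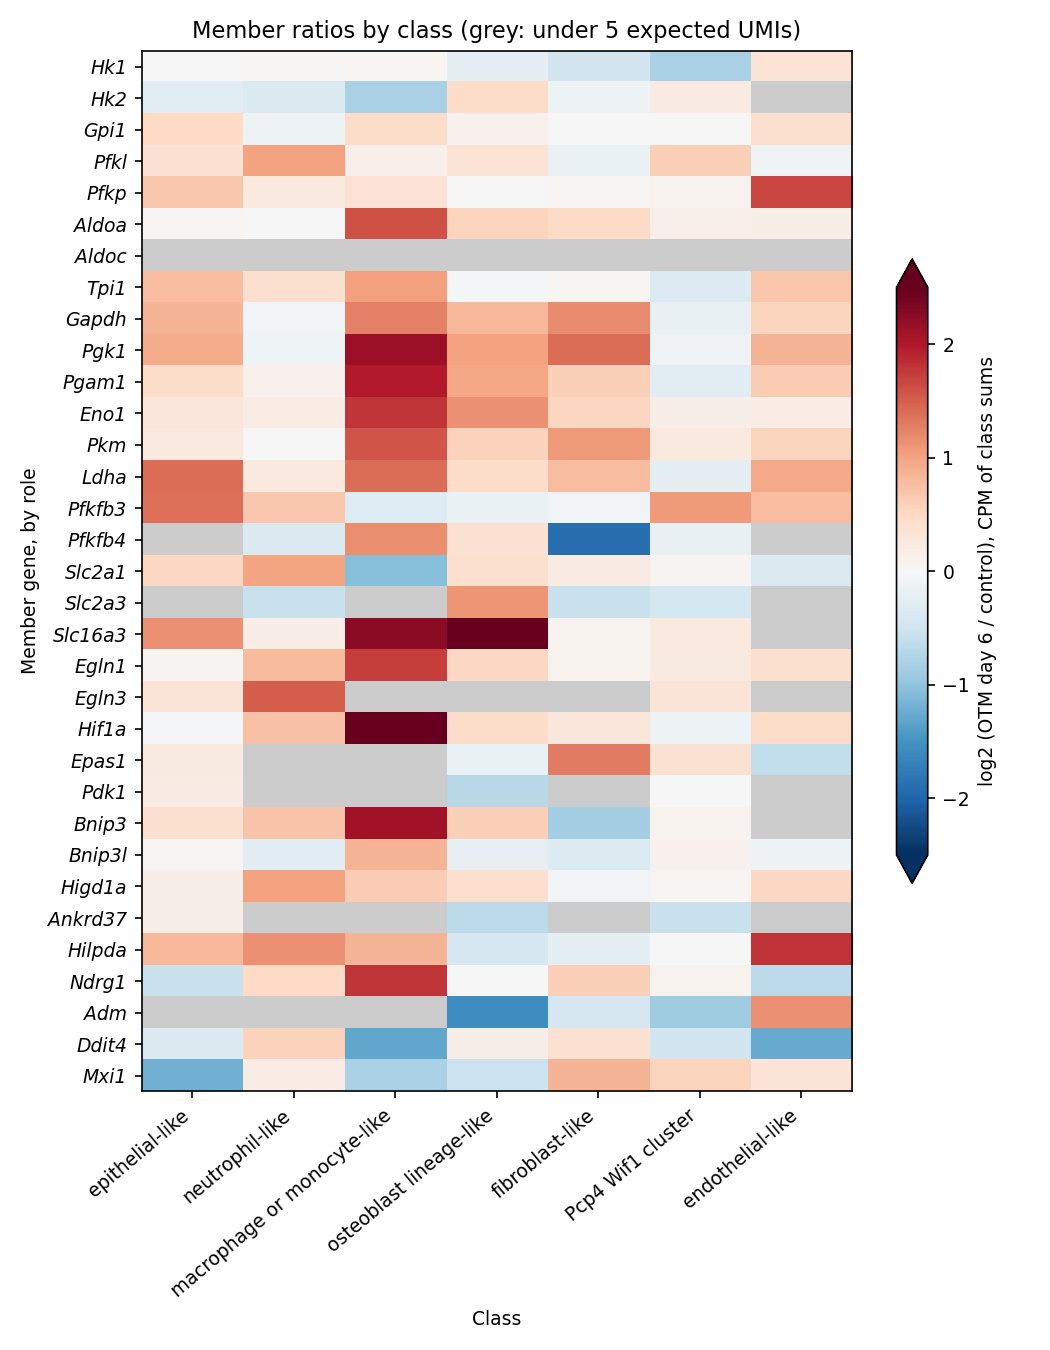
Log2 ratio of OTM day 6 over control for the 33 members (rows, by role) in the 7 compared classes (columns), with red for higher and blue for lower in OTM, sums under 3 UMIs set to 3, and grey where fewer than 5 UMIs were expected in a library. The macrophage or monocyte-like column is red for the measurable enzymes from Aldoa to Ldha, the neutrophil-like and Pcp4 Wif1 columns are pale there, and Adm is blue in osteoblast lineage-like cells and the Pcp4 Wif1 cluster.

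Members not yet given in these classes follow by role, each as its control and its OTM level. Pfkfb3 was at 9.50 and 24.7 CPM in epithelial-like cells, 73.5 and 58.8 CPM in macrophage or monocyte-like cells, 52.0 and 46.6 CPM in osteoblast lineage-like cells, 52.9 and 50.4 CPM in fibroblast-like cells, 45.9 and 73.1 CPM in neutrophil-like cells and 38.8 and 66.1 CPM in endothelial-like cells. The interval of its ratio left out 0 in neutrophil-like cells (0.03 to 1.37) and in the Pcp4 Wif1 cluster, and not in those others. Pfkfb4 was at 11.9 and 5.26 CPM in epithelial-like cells, 10.5 and 23.5 CPM in macrophage or monocyte-like cells, 22.0 and 28.4 CPM in osteoblast lineage-like cells, 68.8 and 53.7 CPM in neutrophil-like cells and 16.1 and 14.1 CPM in the Pcp4 Wif1 cluster, so that fibroblast-like cells were the compared class in which its interval left out 0. Among the enzymes not yet given, Ldha was at 136 and 359 CPM in macrophage or monocyte-like cells (log2 ratio 1.39, interval 0.98 to 1.84) and Tpi1, triosephosphate isomerase, at 102 and 207 CPM (log2 ratio 1.02, interval 0.53 to 1.55), while Tpi1 was lower in OTM cells of the Pcp4 Wif1 cluster, at 164 and 129 CPM (log2 ratio -0.34, interval -0.57 to -0.11). Gpi1 was at 579 and 528 CPM in neutrophil-like cells, its highest class in both libraries. Pkm was at 228 and 269 CPM in the Pcp4 Wif1 cluster and 268 and 394 CPM in endothelial-like cells.

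Of the transporters, Slc2a1 was at 18.5 and 24.5 CPM in osteoblast lineage-like cells, 27.5 and 31.7 CPM in fibroblast-like cells, 35.2 and 37.0 CPM in the Pcp4 Wif1 cluster and 59.9 and 46.5 CPM in endothelial-like cells, with intervals of the ratio that include 0. Slc2a3 was at 10.5 and 10.1 CPM in macrophage or monocyte-like cells, 54.9 and 37.4 CPM in fibroblast-like cells and 14.1 and 3.99 CPM in endothelial-like cells. Its ratio in endothelial-like cells rested on 4 and 23 UMIs and its interval included 0 (-3.37 to 0.17). Slc16a3 had 0 control UMIs in endothelial-like cells, which by the same floor allows up to 10.6 CPM, and 77 OTM UMIs (13.4 CPM, at least 1.26-fold higher than that limit), too few to enter the counts. It was at 11.8 and 12.5 CPM in fibroblast-like cells and 7.03 and 8.32 CPM in the Pcp4 Wif1 cluster.

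Of the oxygen-sensing genes, Egln1 was at 38.0 and 39.9 CPM in epithelial-like cells, 39.3 and 56.0 CPM in osteoblast lineage-like cells, 52.9 and 56.0 CPM in fibroblast-like cells, 7.65 and 13.3 CPM in neutrophil-like cells, 53.3 and 62.4 CPM in the Pcp4 Wif1 cluster and 35.2 and 46.3 CPM in endothelial-like cells, and the interval of its ratio included 0 in each of these. Epas1 was at 23.7 and 27.9 CPM in epithelial-like cells, 37.0 and 32.8 CPM in osteoblast lineage-like cells and 17.6 and 22.9 CPM in the Pcp4 Wif1 cluster, also with intervals that include 0. In neutrophil-like cells Epas1 had 0 control and 20 OTM UMIs. Of the mitochondrial genes, Bnip3 was at 28.5 and 37.7 CPM in epithelial-like cells, 22.0 and 33.1 CPM in osteoblast lineage-like cells, 9.56 and 15.7 CPM in neutrophil-like cells and 35.7 and 37.9 CPM in the Pcp4 Wif1 cluster, and Bnip3l at 111 and 96.8 CPM in osteoblast lineage-like cells, 87.4 and 94.4 CPM in the Pcp4 Wif1 cluster and 169 and 154 CPM in endothelial-like cells. Higd1a was higher in OTM macrophage or monocyte-like cells, at 65.6 and 102 CPM, with an interval just above 0, and was at 65.3 and 67.8 CPM in the Pcp4 Wif1 cluster and 70.5 and 101 CPM in endothelial-like cells, with intervals that include 0. Pdk1, the kinase that switches off pyruvate dehydrogenase, was lower in OTM endothelial-like cells, at 31.7 and 10.9 CPM on 9 and 63 UMIs, too few to enter the counts (log2 ratio -1.54, interval -2.55 to -0.34). Of the other hypoxia-induced genes, Ndrg1 was at 65.9 and 65.1 CPM in osteoblast lineage-like cells and 30.6 and 43.5 CPM in neutrophil-like cells, and its interval in epithelial-like cells lay below 0 (-0.83 to -0.27). Mxi1 was lower in osteoblast lineage-like cells, at 58.9 and 40.8 CPM (log2 ratio -0.53, interval -0.998 to -0.04), and was at 15.7 and 28.3 CPM in fibroblast-like cells. Ddit4 was at 19.0 and 14.9 CPM in epithelial-like cells, 20.8 and 22.9 CPM in osteoblast lineage-like cells, 21.6 and 28.2 CPM in fibroblast-like cells and 23.6 and 17.1 CPM in the Pcp4 Wif1 cluster, and Ankrd37 at 21.4 and 23.6 CPM in epithelial-like cells, 11.8 and 7.68 CPM in fibroblast-like cells and 17.1 and 11.6 CPM in the Pcp4 Wif1 cluster, again with intervals that include 0.

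Set against each other, the glycolytic and the hypoxia-induced medians were farthest apart in 2 classes, with opposite signs. The hypoxia-induced median minus the glycolytic median was 0.69 in neutrophil-like and -0.65 in osteoblast lineage-like cells. It was -0.34 in epithelial-like, -0.32 in macrophage or monocyte-like, -0.20 in endothelial-like and -0.12 in fibroblast-like cells, and 0.06 in the Pcp4 Wif1 cluster. Under the alternatives, the hypoxia-induced median of neutrophil-like cells ranged from -0.07 to 0.91. The glycolytic median of osteoblast lineage-like cells ranged from -0.16 to 0.81. The order of the 2 medians was kept within c5 (hypoxia-induced 0.43, glycolytic 0.11) and c10 (-0.29 and 1.28). That order was reversed within c12 (-0.37 on 2 genes and 0.35) and c8 (-0.06 and -0.16). Pgk1, whose promoter stretch above holds 2 ACGTG motifs (1 on each strand), had log2 ratios from -0.11 in neutrophil-like to 2.14 in macrophage or monocyte-like cells. Adm and Bnip3, whose stretches hold the letters as well, had ratios of -1.55 and 0.59 in osteoblast lineage-like cells, the class where Slc16a3 had 2.57. These ratios had both signs within 1 class, but not all were firm. The Adm ratio kept its sign in 11 of 12 settings, with a range of -1.79 to 0.50. The Slc16a3 ratio ranged from 0.13 to 2.61, and the Bnip3 ratio was within counting error. Whether the letters bear on these ratios was not tested.

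Further genes of the same pathways, from lists of 19 glycolytic and 25 hypoxia genes that are not members, were counted by the same 2-fold rule. The counts of the other glycolysis genes were 1 of 5 higher and 0 lower in epithelial-like, 3 of 7 higher and 1 lower in macrophage or monocyte-like, 1 of 6 higher and 0 lower in neutrophil-like, 0 of 10 higher and 1 lower in osteoblast lineage-like and 0 of 7 higher and 1 lower in fibroblast-like cells. In epithelial-like cells the gene was Slc16a1, the lactate carrier MCT1, at 30.9 CPM in control and 106 CPM in OTM. The counts of the other hypoxia genes were 4 of 21 higher and 2 lower in epithelial-like, 4 of 13 higher and 0 lower in macrophage or monocyte-like, 4 of 13 higher and 0 lower in neutrophil-like, 4 of 21 higher and 2 lower in osteoblast lineage-like and 5 of 20 higher and 0 lower in fibroblast-like cells, and in the Pcp4 Wif1 cluster 1 of 22 higher and 0 lower (all genes 4.21% and 6.53%). Over all genes the shares 2-fold higher and lower were 8.09% and 8.27% in epithelial-like, 21.1% and 7.92% in macrophage or monocyte-like, 16.6% and 2.33% in neutrophil-like, 8.93% and 3.01% in osteoblast lineage-like and 8.21% and 3.54% in fibroblast-like cells. Over all cells, the other glycolysis genes had a median log2 ratio of -0.21 and the other hypoxia genes 0.16. These medians were -0.37 and 0.52 in fibroblast-like and -0.21 and 0.22 in osteoblast lineage-like cells. They were 0.53 and 0.90 in macrophage or monocyte-like, 0.48 and 0.45 in epithelial-like and 0.39 and 0.70 in neutrophil-like cells. Among these, the order was opposite to that of the members except in epithelial-like and neutrophil-like cells. The lists were not sorted as the member lists were, so the 2 orders are not strictly comparable. The other glycolysis list holds Pdk2, Pdk3, Pdk4 and carriers such as Slc16a1. Among the members, Pdk1 counts as hypoxia-induced and the transporters stand apart. The other hypoxia list also holds oxygen-sensing genes such as Vhl, Egln2, Hif1an and Arnt. Vegfa, the vessel growth factor, was at 133 CPM in control and 59.3 CPM in OTM epithelial-like cells (log2 ratio -1.16, interval -1.58 to -0.73) but at 23.6 CPM in control and 68.9 CPM in OTM macrophage or monocyte-like cells (log2 ratio 1.54, interval 0.55 to 2.72). Angptl4, a lipase inhibitor, was at 68.6 CPM in control and 199 CPM in OTM fibroblast-like cells (log2 ratio 1.54, interval 1.05 to 2.06) and at 9.24 CPM in control and 75.6 CPM in OTM osteoblast lineage-like cells (log2 ratio 3.03, interval 2.03 to 4.26). Kdm3a, a histone demethylase, was lower in osteoblast lineage-like cells, at 173 CPM in control and 47.2 CPM in OTM (log2 ratio -1.88, interval -2.20 to -1.55), as was Ndufa4l2, a mitochondrial subunit, at 178 CPM in control and 71.2 CPM in OTM, while in epithelial-like cells Ndufa4l2 was higher, at 40.4 CPM in control and 121 CPM in OTM.

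The 18 measurable oxidative metabolism genes (17 in neutrophil-like cells) had median log2 ratios of 0.10 in epithelial-like, 0.99 in macrophage or monocyte-like, 0.11 in osteoblast lineage-like, 0.30 in fibroblast-like and 0.17 in neutrophil-like cells and -0.04 in the Pcp4 Wif1 cluster. In macrophage or monocyte-like cells 9 of the 18 were 2-fold higher (all genes 21.1%), and in epithelial-like cells none was (all genes 8.09%). Genes commonly used for scaling had medians of 0.06, 0.36, 0.06, 0.47 and 0.47 in the same order of classes and -0.18 in the Pcp4 Wif1 cluster. Immediate early and stress genes had medians of -0.19 in osteoblast lineage-like, 0.20 in fibroblast-like and -0.52 in endothelial-like cells and -0.67 in the Pcp4 Wif1 cluster. Their part in the member values was not tested.

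The remaining classes add levels rather than differences. Erythroid-like cells (12 control and 28 OTM) had 13 and 830 glycolytic UMIs in all, while Bnip3l was at 527 CPM in control and 280.4 CPM in OTM cells (log2 ratio -0.91, interval -1.25 to -0.56). In that class 68% of all genes were 2-fold higher and 3.34% lower in OTM, so no list is read there. A cluster of 4 control and 16 OTM cells was led by Siglech, Cox6a2 and Mpo, which mix dendritic and granulocyte progenitor genes, and is left unnamed. It had an OTM glycolytic sum of 4661 CPM, with Pgam1 at 506 CPM. An unnamed cluster of 28 OTM cells with cell cycle genes in the lead (Top2a, Cdk1) had 3100.1 CPM. Schwann-like cells (4 and 25) had the highest hypoxia-induced sum in the OTM library, 1534 CPM (interval 1420.0 to 1655), and the Cma1 Gzmb cluster came next with 1409.7 CPM (interval 1234 to 1603), while their glycolytic sums were 2587 and 2856 CPM. A single gene made up a large part of each hypoxia-induced sum, Ndrg1 with 959 CPM in Schwann-like cells and Hilpda with 635 CPM in the Cma1 Gzmb cluster. Aldoc, the brain form of aldolase, had 89 OTM UMIs in all, with 28 of them in osteoclast-like cells.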

How the data were processed

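Periodontal ligament cells were profiled by 10x Genomics 3' single-cell RNA sequencing in 1 control and 1 OTM day 6 library. The deposited files hold raw UMI counts per gene and barcode, and the submitters' processing notes name Cell Ranger 7.0.1, Seurat and the builds mm10 and GRCm38 with no further detail. The counts were analysed with scanpy 1.11.5. Cells with at least 200 genes and at most 20% mitochondrial UMIs were kept, with doublets called by Scrublet (2 and 8) left in. They were clustered with Leiden at resolution 1.0 on 2000 variable genes and 30 components, without members, other pathway genes and mitochondrial genes. Mononuclear phagocytes were clustered again at 0.8, and clusters were named from marker lists. UMIs were summed per class and library and given as CPM with exact Poisson intervals. Ratios have exact conditional binomial intervals, shares have Clopper-Pearson intervals, and all are 95% intervals of counting error only. A gene was measurable if equal CPM would give both libraries 5 or more UMIs, sums under 3 UMIs were set to 3 in medians and counts, and a difference was counted when past 2-fold. No test was possible with 1 library per group. The calculation of ratios was tested on simulated data. TMM factors came from edgeR 4.0.16. For each class, members with at least 20 UMIs were named as the 3 with the most UMIs per role group, plus those past 2-fold with an interval that leaves out 0. The members and the lists were chosen with earlier results of these data known. Alternatives covered scaling, filters, doublets, clustering, class rules, equal cell weights and thinning to 2000 UMIs.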

Additional observations from a re-analysis of the deposited data

How the results depend on the processing

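With 1 library per group, no value here has a replicate error, and control classes of 14 to 37 cells (91 in the Pcp4 Wif1 cluster) limit what counting can resolve. The alternatives were run only for classes with at least 20 cells in each library, so no endothelial-like median or ratio was recomputed. Of the medians per class, summed levels and pathway medians recomputed under the alternatives, 148 of 167 stayed within set bounds, as did 270 of 343 ratios of named genes. For a single gene or a summed level, the bounds were its interval of counting error. For a list median they were the medians of the interval limits of its genes, not the counting error of the median. A median that changed sign could therefore stay within them. No paired analysis was possible because each group was 1 library. TMM scaling added 0.31 to every log2 ratio of epithelial-like cells, 0.11 in fibroblast-like cells and 0.07 in the Pcp4 Wif1 cluster. The glycolytic median of osteoblast lineage-like cells was 0.81 with cells thinned to 2000 UMIs, 0.01188 with the stricter cell filter, 0.008831 with no filter, -0.0129 without called doublets and -0.1622 in cluster c8, the cluster with most control cells. That of fibroblast-like cells was 0.87 after thinning and -0.17 with each cell weighted equally. In macrophage or monocyte-like cells it was 0.08083 at a Leiden resolution of 0.5 and 0.1427 in cluster m1, where the hypoxia-induced median was -0.2581. With each cell weighted equally, the summed glycolytic level in OTM was 2152 CPM (Pcp4 Wif1), 9748 CPM (epithelial), 2236 CPM (fibroblast), 3796 CPM (macrophage), 4180 CPM (neutrophil) and 2629 CPM (osteoblast), and with classes taken from the marker scores of single cells it was 2335 CPM (fibroblast), 4684 CPM (macrophage), 4635 CPM (neutrophil) and 2256 CPM (osteoblast). Ratios that turned were Slc16a3 in epithelial-like cells (-1.05 with equal weights, -0.20 thinned), Gapdh in fibroblast-like cells (-0.30 with equal weights), Adm in osteoblast lineage-like cells (0.50 thinned) and Pgk1 there (-0.07784 with no filter, -0.31 in c8). In macrophage or monocyte-like cells they were Slc16a3 (-0.40 with equal weights, -2.03 in m1), Gapdh (-0.01341 at resolution 0.5), Pgam1 (-0.07227), Ldha (-0.22), Egln1 (-1.03) and Ndrg1 (-2.71), the last 4 in m1. The cause was not tested. The marker score classes hold no Pcp4 Wif1 cluster, and classes of 1 cluster give no value for the cluster with most control cells.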
